A study of Rattus norvegicus with 47 samples.

Results

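The heat shock proteins and the DNAJ co-chaperones of rat striatum and cerebellum were described in animals that had inhaled PCB52 and in sham animals. Members were chosen by name and level. Gene identifiers of the count tables were paired with rat symbols, and symbols beginning with Hspa, Hspb, Hspd, Hspe or Hsph and a number, with Hsp90 or with Dnaj were kept where the mean reached 1 CPM (the count scaled to a common library total) in either region. The name matched 67 symbols, and 60 of the 15319 listed genes reached the minimum. They comprised 12 Hspa, 4 Hspb, 3 Hspd, Hspe and Hsph, 3 Hsp90, 4 Dnaja, 11 Dnajb and 23 Dnajc genes. The 7 symbols below the minimum were Dnajb7, Dnajb8, Dnajc22, Dnajc5b, Hspb3, Hspb7 and Hspb9.

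Sprague-Dawley rats of both sexes inhaled PCB52, a polychlorinated biphenyl, in a nose-only system (4 h daily, 28 days) or were sham animals. Males were 39 days old and females 42 days old when they entered their groups. Punches of striatum gave 6 libraries of PCB52 males, 6 of PCB52 females, 4 of sham males and 6 of sham females, and punches of cerebellum gave 5, 6, 5 and 6 libraries in the same order. Each library came from 1 numbered animal, and 21 animals gave a library of both regions. Library totals ran from 5684508 to 8914523 counts in striatum and from 6524400 to 15865054 in cerebellum.

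Chaperones of the HSP70 family bind unfolded stretches of protein in cycles of ATP hydrolysis. DNAJ proteins bring clients and start the hydrolysis through their J domain, and HSP110 proteins and BAG proteins release the nucleotide. HSP90 takes over clients such as kinases and steroid receptors, small heat shock proteins hold unfolded protein without ATP, and the chaperonin HSP60 with its lid HSP10 folds protein in mitochondria. Heat and other damage raise many of these genes through the transcription factor HSF1, and unfolded protein in the endoplasmic reticulum raises another set through ATF6 and XBP1. Neurons rely on DNAJ proteins at the synapse, where DNAJC5 guards vesicle proteins and DNAJC6 (auxilin) strips clathrin.

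Some libraries stood apart from their labels. In 5 sham libraries (1 striatal and 4 cerebellar) transcripts of both sexes were above 3 CPM. Markers of neighbouring tissue exceeded the regional median by more than 2 log2 units in striatal PCB52 females 14 and 20, striatal sham female 12 and cerebellar sham male 1. Striatal PCB52 female 22 held cerebellar transcripts, with a granule and Purkinje list mean of 5.9 against a regional median of 2.74. In 4 cerebellar libraries, PCB52 males 15 and 23 and PCB52 females 16 and 20, the mean of a ribosomal protein list (log2 of CPM plus 0.5, 38 of 39 genes measured) was 9.33 to 9.96, against 7.7 to 8.8 in the other 18. In striatum this mean ran from 7.73 to 9.13 and was highest in sham female 12. The regional labels fitted their markers: Drd1 had a median of 351 CPM in striatum and 4.33 CPM in cerebellum. Gabra6 had a median of 0.307 CPM in striatum, with 67.6 CPM in its highest library, PCB52 female 22, and of 1020 CPM in cerebellum.

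Most members differed in level between the regions. Between striatum and cerebellum 48 of 60 members passed an adjusted p of 0.05 in edgeR's quasi-likelihood test (Benjamini-Hochberg over 12446 genes), of which 13 were higher and 35 lower in striatum. Over all genes tested 80.9% passed, 38.5% higher and 42.4% lower, so the share of members called was close to that of the transcriptome. The median log2 fold change, striatum over cerebellum, was -0.23 over the members and -0.04 over all genes. Changes of the members were mostly small: 16 (26.7%) were called at over 1.5-fold and 10 (16.7%) at over 2-fold, against 47.1% and 28% of all genes. The striatal range lay wholly above the cerebellar range in 6 members and wholly below it in 6, against 11.4% and 10% of all genes. These counts include members that met the minimum level only through the region where they are high. Dnajb13, through striatum, is among those called, those over 2-fold and those wholly above, and Hspb2, through cerebellum, is among those called. In bulk tissue, fewer cells of a type and less RNA per cell cannot be told apart.

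**Figure D1:**
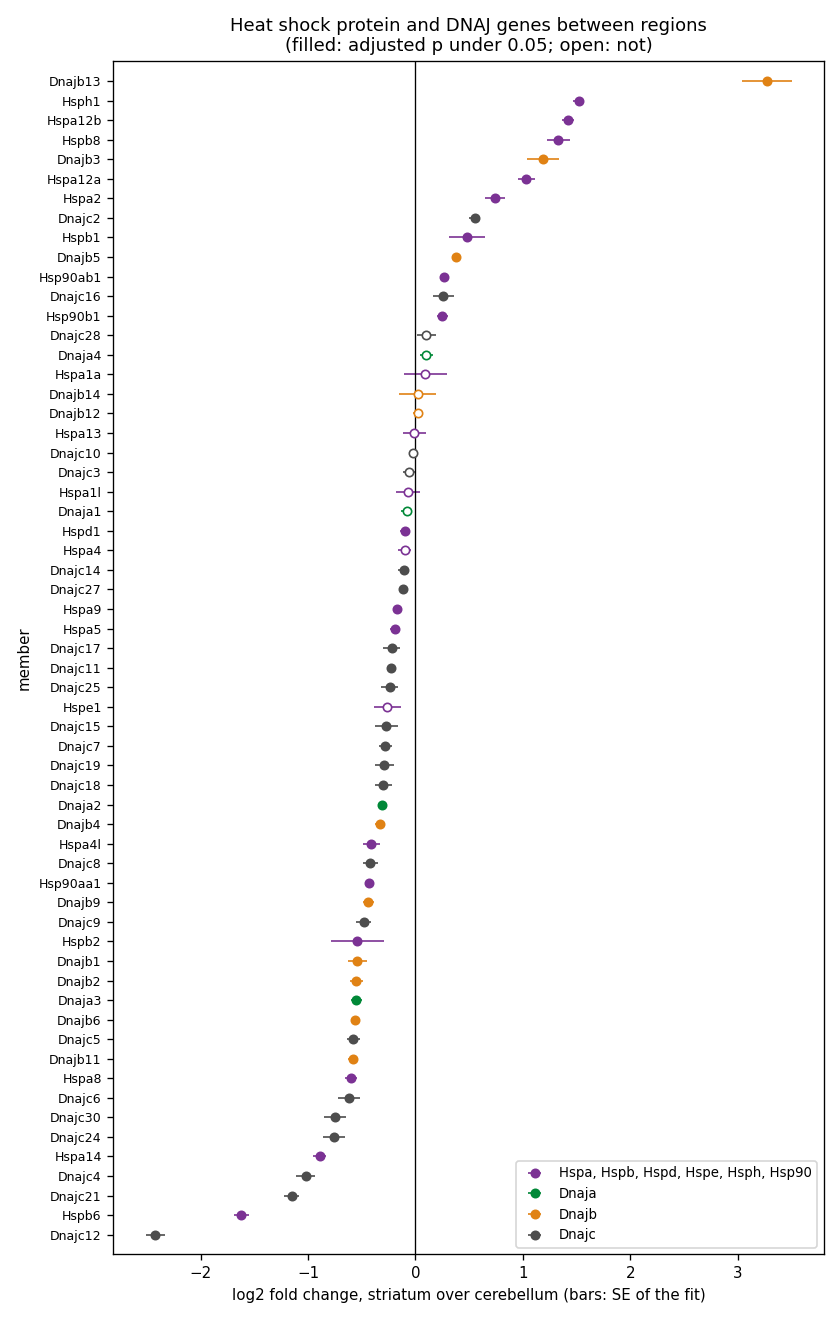
Log2 fold change of each of the 60 members, striatum over cerebellum, with the SE of the fit; filled points passed an adjusted p of 0.05. Dnajb13 (3.27), Hsph1 (1.52) and Hspa12b (1.42) lie at the striatal end, and Dnajc12 (-2.42), Hspb6 (-1.62) and Dnajc21 (-1.15) at the cerebellar end. Dnajb13 met the minimum level through striatum alone.

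The HSP110 exchange factors differed in unlike directions. Hsph1 (gene 288444, HSP105) had a median of 477 and a highest level of 600 CPM over 22 striatal libraries (472 ± 56.9, mean ± SD), against 133, 166 and 197 CPM (lowest, median, highest) over 22 cerebellar libraries. The ranges did not overlap, and Hsph1 was higher in the striatum of 21 of 21 animals. Its log2 fold change was 1.52 ± 0.05 (SE, adjusted p = 1.84e-27), the lowest p among the members. Hspa4l, its relative, was lower in striatum (-0.41 ± 0.08, adjusted p = 5.26e-06), and Hspa4 did not pass (-0.1 ± 0.06, adjusted p = 0.13). Hspa4 passed with limma voom (-0.13, adjusted p = 0.00299), with the ribosomal mean as a covariate (-0.17, adjusted p = 5.85e-07), without the 4 libraries of high ribosomal mean (-0.18, adjusted p = 0.000199) and without animal 20 (-0.12, adjusted p = 0.0454). The promoter of Hsph1 is shown because it carries the member with the clearest difference and one of the few long HSF1-type sites found. The RefSeq window (GRCr8, chr12:10427118-10427417, plus strand) covers 250 bases before and 50 after the gene start, and capitals mark matches to the heat shock element letters GAANNTTCNNGAA, GAANNTTC or TTCNNGAA on either strand.
Hsph1: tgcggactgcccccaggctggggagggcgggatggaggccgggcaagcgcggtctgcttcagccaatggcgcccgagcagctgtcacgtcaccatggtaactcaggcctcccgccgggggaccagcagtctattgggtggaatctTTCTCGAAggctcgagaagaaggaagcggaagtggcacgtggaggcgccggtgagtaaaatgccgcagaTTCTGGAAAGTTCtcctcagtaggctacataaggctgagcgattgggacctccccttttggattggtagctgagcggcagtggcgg

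A RefSeq window was at hand for 49 of the 60 members. Some windows, such as those of Dnajc6 and Hspd1, lie inside the annotated gene and not at its outer start. The long element GAANNTTCNNGAA, searched on both strands, was found in 5 of them (10.2%: Dnaja1, Hspa8, Hspd1, Hspe1 and Hsph1), against 202 of 27457 windows of all genes (0.736%). The windows of Hspd1 and Hspe1 overlap, and their matches are the same bases read on opposite strands, so they are not separate sites. The short pair GAANNTTC, which the long element contains, was in 12 members (24.5%), against 8.34% of all windows, and TTCNNGAA, which it also contains, in 10 (20.4%), against 8.49%. Hsp90aa1 had no window, so its promoter was not searched. The window of Hspa1a held 0 matches, and the annotated span of Hspa1a overlaps that of Hspa1l. A match, or the lack of one, describes letters in the window and not binding. Among the 5 members with the long element, Hsph1 was higher in striatum, Hspa8 and Hspd1 were lower, and Hspe1 and Dnaja1 did not pass.

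Of the 10 members on the HSP70 list, 3 were higher in striatum and 4 lower, against 38.5% and 42.4% of all genes. Hspa12a (an atypical HSP70 of brain) stood at 160, 216 and 283 CPM in striatum (lowest, median, highest), against 57.2, 111 and 142 CPM in cerebellum. The ranges did not overlap, and the log2 fold change was 1.03 ± 0.08 (adjusted p = 6.11e-15). Hspa12b, its relative of endothelial cells, stood at 23.3, 32.5 and 43.4 CPM in striatum, against 9.12, 12.4 and 16 CPM in cerebellum (1.42 ± 0.06, adjusted p = 4.28e-23). An endothelial marker list, with 9 of 10 genes measured and none at 0 in a whole region, had a library mean of 4.92 to 5.69 log2 units in striatum and 3.9 to 4.65 in cerebellum. Its part in the Hspa12b difference was not tested. Hspa2, known for its role in testis, was also higher in striatum, at 18.5 ± 2.57 CPM against 11.2 ± 3.27 CPM in cerebellum (SD, n = 22 each; 0.74 ± 0.09).

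The constitutive cytosolic chaperone Hspa8 was lower in striatum, at 1580, 1930 and 2590 CPM, against 2260, 3030 and 3720 CPM in cerebellum. The ranges overlapped in part, Hspa8 was lower in the striatum of 21 of 21 animals, and the log2 fold change was -0.6 ± 0.06 (adjusted p = 2.24e-11). Its window (GRCr8, chr8:50080264-50080563, plus strand) holds the long element at 2 places, marked in capitals, and is shown beside that of Hsph1 because both carry the element and differ in opposite directions.
Hspa8: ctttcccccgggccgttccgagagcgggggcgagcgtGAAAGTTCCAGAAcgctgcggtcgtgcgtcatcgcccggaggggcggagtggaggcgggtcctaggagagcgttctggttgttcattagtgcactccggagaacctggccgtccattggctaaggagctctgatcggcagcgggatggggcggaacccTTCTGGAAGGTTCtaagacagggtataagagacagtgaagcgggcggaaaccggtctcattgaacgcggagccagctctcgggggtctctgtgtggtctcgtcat
The ER chaperone Hspa5 (BiP) and the mitochondrial Hspa9 (mortalin) were lower in striatum by small amounts, -0.19 ± 0.05 (adjusted p = 0.000289) and -0.17 ± 0.03 (adjusted p = 1.16e-05). The heat-inducible Hspa1a lay at the floor, with 0.293 to 1.79 CPM in striatum and 0.332 to 1.85 CPM in cerebellum, and did not pass (0.09 ± 0.2, adjusted p = 0.688). Its near-identical copy Hspa1b had no row, so reads of the pair may have been split or dropped, and the value of Hspa1a is uncertain. Hspa8, Hsp90ab1, Hspd1 and Hsp90aa1 have 33, 23, 20 and 16 pseudogenes in the reference, which may have taken reads by an unknown share.

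Hspa14 and Dnajc2 encode the HSP70 and the J protein of the ribosome-associated complex, which meets new chains at the ribosome, and they differed in opposite directions. Hspa14 stood at 21, 26.3 and 32 CPM in striatum, against 40.3, 47.2 and 65.6 CPM in cerebellum (-0.89 ± 0.06, adjusted p = 8.99e-17). Dnajc2 stood at 34.8, 46.5 and 54.3 CPM in striatum, against 26, 31.3 and 35.3 CPM in cerebellum (0.55 ± 0.05, adjusted p = 2.59e-13). In 21 of 21 animals Hspa14 was lower and Dnajc2 higher in striatum. Dnajc21, which acts in maturation of the large ribosomal subunit, was lower in striatum with ranges apart, at 4.45 to 11.7 CPM against 14 to 23.2 CPM in cerebellum (-1.15 ± 0.07).

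All 3 HSP90 genes passed, as did 80.9% of all genes, with small changes of unlike sign. Hsp90aa1, the inducible cytosolic form, was lower in striatum at 2940, 3320 and 3880 CPM, against 3600, 4570 and 5090 CPM in cerebellum (-0.43 ± 0.04, adjusted p = 4.83e-13). Hsp90ab1, the constitutive form, was higher in striatum at 1390, 1600 and 1870 CPM, against 1070, 1360 and 1460 CPM in cerebellum (0.27 ± 0.04, adjusted p = 2.07e-08). Both held in 21 of 21 animals. Hsp90b1 (GRP94 of the ER) was higher in striatum (0.25 ± 0.05, adjusted p = 7.43e-06).

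The 4 small heat shock proteins under the name rule all passed, as did 80.9% of all genes: Hspb8 and Hspb1 were higher in striatum, and Hspb6 and Hspb2 lower. Cryab, a small heat shock protein outside the name rule, overlapped widely, at 51.3 to 213 CPM in striatum and 41.8 to 194 CPM in cerebellum. Hspb6 (HSP20) stood at 26.4, 36.4 and 52.6 CPM in striatum, against 83.3, 116 and 160 CPM in cerebellum. Hspb8 (HSP22), which works with Bag3 in removal of damaged protein, stood at 28, 35.2 and 46.1 CPM in striatum, against 7.28, 14 and 23.8 CPM in cerebellum. Neither pair of ranges overlapped, and both differences held in 21 of 21 animals. The log2 fold changes were -1.62 ± 0.07 for Hspb6 (adjusted p = 1.85e-23) and 1.33 ± 0.11 for Hspb8 (adjusted p = 3.23e-14). Hspb1 (HSP27) was higher in striatum, at 15.6 ± 5.92 CPM against 10.9 ± 4.12 CPM in cerebellum (SD, n = 22 each; 0.48 ± 0.17, adjusted p = 0.00984), with wide overlap. Hspb2 averaged 0.865 CPM in striatum and 1.22 CPM in cerebellum and had an adjusted p of 0.0463. It met the minimum of 1 CPM through cerebellum alone, so its value is a description. Glial and vascular lists were higher in striatum: the oligodendrocyte list mean ran from 8.24 to 9.96 log2 units in striatum and from 7.4 to 8.84 in cerebellum, and the mural cell list mean from 4.2 to 4.98 in striatum and from 3.14 to 4.3 in cerebellum, each with 10 of 10 genes measured and none at 0 in a whole region. Their part in the small heat shock protein differences was not tested.

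**Figure D2:**
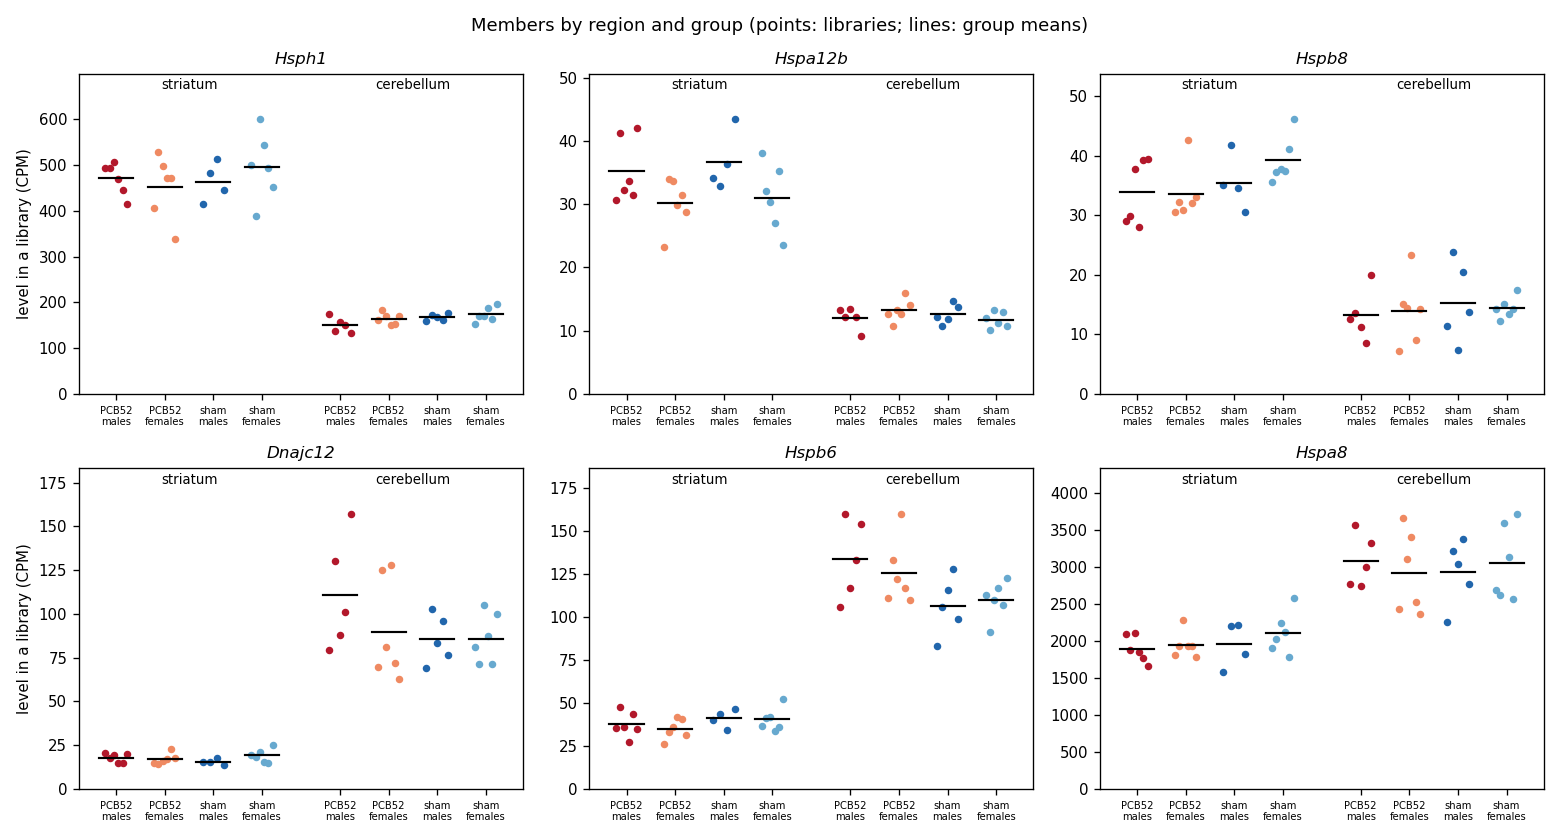
Level of 6 members in each library (CPM, linear axis from 0), with striatum left and cerebellum right, 4 groups in each, and a line at the group mean. Hsph1, Hspa12b and Hspb8 sit higher in every striatal group, Dnajc12, Hspb6 and Hspa8 lower, and the PCB52 and sham groups of a region overlap in all 6.

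DNAJC genes leaned to cerebellum. Of the 23, 18 were lower in striatum and 2 (Dnajc2 and Dnajc16) higher, with a median log2 fold change of -0.28. Over all genes 42.4% were called lower and 38.5% higher, with a median of -0.04. Dnajc12, a partner of the hydroxylases that make monoamines, was furthest apart: it stood at 13.6, 17.3 and 24.8 CPM in striatum, against 62.7, 85.2 and 157 CPM in cerebellum. The ranges did not overlap, and the log2 fold change was -2.42 ± 0.09 (adjusted p = 6.63e-25). The striatal library with cerebellar transcripts, PCB52 female 22, had 23 CPM of Dnajc12. Among the synaptic members, Dnajc5 was lower in striatum (-0.58 ± 0.06, adjusted p = 1.45e-12), as was Dnajc6 (-0.62 ± 0.1, adjusted p = 4.25e-07), whose cerebellar levels spread from 141 to 375 CPM. The neuron marker list, with 10 of 10 genes measured and none at 0 in a whole region, had a library mean of 8.31 to 8.72 log2 units (median 8.49) in striatum and 8.58 to 9.14 (median 9.03) in cerebellum. Its part in these differences was not tested. Dnajc4 (-1.02 ± 0.09), Dnajc24 (-0.76 ± 0.1), which acts in diphthamide synthesis, and Dnajc30 (-0.75 ± 0.1), a mitochondrial protein of complex I upkeep, were also lower in striatum.

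The DNAJB genes were mixed, with 3 higher and 6 lower in striatum of 11, against 38.5% and 42.4% of all genes. Dnajb13, a protein of the radial spokes of cilia, averaged 3.67 ± 0.992 CPM in striatum and 0.366 ± 0.285 CPM in cerebellum (SD, n = 22 each; log2 fold change 3.27 ± 0.23). It met the minimum of 1 CPM through striatum alone, so a difference in this direction was built into its choice, and its value is a description. Of an ependymal list, 5 of 10 genes were measured, none of them at 0 in a whole region, and its library mean ran from 2.1 to 4 log2 units in striatum and from 0.67 to 2.19 in cerebellum. Its part in the Dnajb13 difference was not tested. Dnajb3 was also low and higher in striatum (1.19 ± 0.15), and Dnajb5 was higher with ranges apart, at 92.5 to 139 CPM in striatum against 76.5 to 89.2 CPM in cerebellum (0.38 ± 0.04). Dnajb6, which holds back aggregation of polyglutamine proteins, was lower in striatum with ranges apart, at 75.2 to 101 CPM against 113 to 156 CPM in cerebellum (-0.56 ± 0.04, adjusted p = 5.82e-16). Dnajb1, the HSP40 that serves Hspa8 and Hspa1a, was lower in striatum, at 49, 63.4 and 119 CPM, against 63.7, 97.8 and 140 CPM in cerebellum (-0.54 ± 0.09, adjusted p = 1.71e-06). Its promoter is shown because Dnajb1 is the member of lowest p under PCB52 in striatal females; the window (GRCr8, chr19:41431092-41431391, minus strand) holds 2 short pairs, in capitals, and no long element.
Dnajb1: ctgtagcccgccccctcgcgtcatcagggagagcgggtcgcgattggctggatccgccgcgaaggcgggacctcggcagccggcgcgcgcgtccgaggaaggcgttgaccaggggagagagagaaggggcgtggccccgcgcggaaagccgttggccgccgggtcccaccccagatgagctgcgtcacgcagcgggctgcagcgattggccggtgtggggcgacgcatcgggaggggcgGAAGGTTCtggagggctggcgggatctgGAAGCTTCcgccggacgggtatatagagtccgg
Of the DNAJA genes, Dnaja2 (-0.31 ± 0.04) and the mitochondrial Dnaja3 (-0.55 ± 0.05) were lower in striatum, and Dnaja1 (-0.08 ± 0.05) and Dnaja4 (0.1 ± 0.06) did not pass.

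Of the 10 ER chaperones, 1 was higher in striatum (Hsp90b1) and 4 were lower, against 38.5% and 42.4% of all genes. Dnajb11 (ERdj3) was lower with ranges apart, at 41.8 to 57.1 CPM in striatum against 57.9 to 93.1 CPM in cerebellum (-0.58 ± 0.05, adjusted p = 2.62e-13). Dnajb9 (ERdj4) was lower (-0.44 ± 0.05), and Dnajc3 (P58IPK) and Dnajc10 (ERdj5) did not pass (-0.06 ± 0.06 and -0.02 ± 0.04). The ER stress element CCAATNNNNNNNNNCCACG was found in the windows of 3 members (6.12%: Dnajc3, Hsp90b1 and Hspa5), against 21 of 27457 windows (0.0765%), searched on both strands. The window of Hspa5 (GRCr8, chr3:38452766-38453065, plus strand) is shown with the element in capitals, since Hspa5 and Hsp90b1 return below among the striatal females.
Hspa5: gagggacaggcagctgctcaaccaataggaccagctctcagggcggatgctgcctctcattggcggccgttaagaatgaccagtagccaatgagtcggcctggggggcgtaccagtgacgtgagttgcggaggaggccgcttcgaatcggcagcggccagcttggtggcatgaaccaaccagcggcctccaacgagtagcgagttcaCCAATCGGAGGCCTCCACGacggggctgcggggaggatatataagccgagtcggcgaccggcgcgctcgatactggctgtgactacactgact

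Of the 9 mitochondrial members, 7 were lower in striatum and 0 higher, against 42.4% and 38.5% of all genes. Their median log2 fold change was -0.26, against -0.04 over all genes. The chaperonin pair Hspd1 (HSP60) and Hspe1 (HSP10) share a promoter: the genes lie head to head on chromosome 9, on opposite strands, and their windows overlap by 211 bases (chr9:64084077-64084287). The overlap holds the long heat shock element, shown in capitals in the window of Hspe1 (GRCr8, chr9:64084077-64084376, plus strand).
Hspe1: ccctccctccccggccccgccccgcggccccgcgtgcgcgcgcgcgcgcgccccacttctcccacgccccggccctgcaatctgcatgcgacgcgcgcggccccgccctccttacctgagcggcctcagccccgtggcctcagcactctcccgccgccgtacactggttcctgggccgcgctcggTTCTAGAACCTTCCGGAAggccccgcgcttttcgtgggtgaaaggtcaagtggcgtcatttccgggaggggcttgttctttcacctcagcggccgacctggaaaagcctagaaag
The levels of the pair spread unlike each other. In cerebellum Hspe1 stood at 33.4, 46.1 and 119 CPM (lowest, median, highest) and Hspd1 at 171, 191 and 226 CPM. Hspd1 was lower in striatum (-0.1 ± 0.04, adjusted p = 0.0206). That call was lost with RLE size factors (adjusted p = 0.119), with DESeq2 (adjusted p = 0.0919), without the libraries with other tissue or cerebellar transcripts (adjusted p = 0.0664), without those of high ribosomal mean (adjusted p = 0.111) and without animal 7, 14, 16 or 22 (adjusted p of 0.0532 to 0.106). Hspe1 did not pass (-0.26 ± 0.13, adjusted p = 0.0574), and passed without the libraries with other tissue (-0.3, adjusted p = 0.0376) and without animal 12, 13 or 21 (adjusted p of 0.0273 to 0.0481). Without the 4 cerebellar libraries of high ribosomal mean the value of Hspe1 was 0.01.

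The partners of the machinery outside the name rule also differed between regions. All 8 CCT chaperonin subunits, which fold actin and tubulin, were lower in striatum, with a median log2 fold change of -0.77. Of 28 HSF1 and cofactor genes, 18 were lower and 2 higher. Over all genes tested between the regions 42.4% were called lower and 38.5% higher, with a median of -0.04. The FK506-binding proteins of HSP90 complexes stood opposite each other: Fkbp5, a glucocorticoid-induced brake on the steroid receptor, had 122 ± 17.2 CPM in striatum and 37 ± 5.26 CPM in cerebellum (SD, n = 22 each; 1.71 ± 0.06, adjusted p = 4.27e-27). Fkbp4, which helps the receptor, had 157 ± 17 CPM in striatum and 453 ± 63.4 CPM in cerebellum (-1.54 ± 0.06, adjusted p = 1.52e-25). Bag2, an HSP70 exchange factor, had 7.06 ± 1.27 CPM in striatum and 33.4 ± 6.63 CPM in cerebellum (-2.25 ± 0.08). Hsf1 itself was lower in striatum (-0.46 ± 0.04, adjusted p = 3.62e-13), as was Stip1, the adaptor between HSP70 and HSP90 (-0.73 ± 0.04). Of 19 ER stress genes tested, 3 were higher in striatum, among them Hyou1 (0.59 ± 0.08), the HSP110 relative of the ER, and 11 were lower, among them Atf4 (-1.4 ± 0.09).

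PCB52 against sham was the question of the study's design within each region. No member passed an adjusted p of 0.05 in edgeR's test in males, females or both sexes of either region, and 0% of all genes tested did (12142 in striatum and 11690 in cerebellum). Nor did a member pass in the female effect minus the male effect of either region or in the striatal effect minus the cerebellar effect, where again 0% of genes passed. The 58 members tested in striatum and 59 in cerebellum are those left after a filter on low counts. In these comparisons limma voom also called 0 members, and DESeq2 called 1. At an unadjusted p under 0.05 the males of striatum gave 0 members (0.898% of all genes), the females 7 (13.4%) and both sexes 2 (5.8%). The males of cerebellum gave 11 (14.3%), the females 3 (3.16%) and both sexes 10 (14.8%). The female minus male effect gave 1 member in striatum (3.88%) and 0 in cerebellum (2.17%), and the striatal minus cerebellar effect 15 (18.3%).

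**Figure D3:**
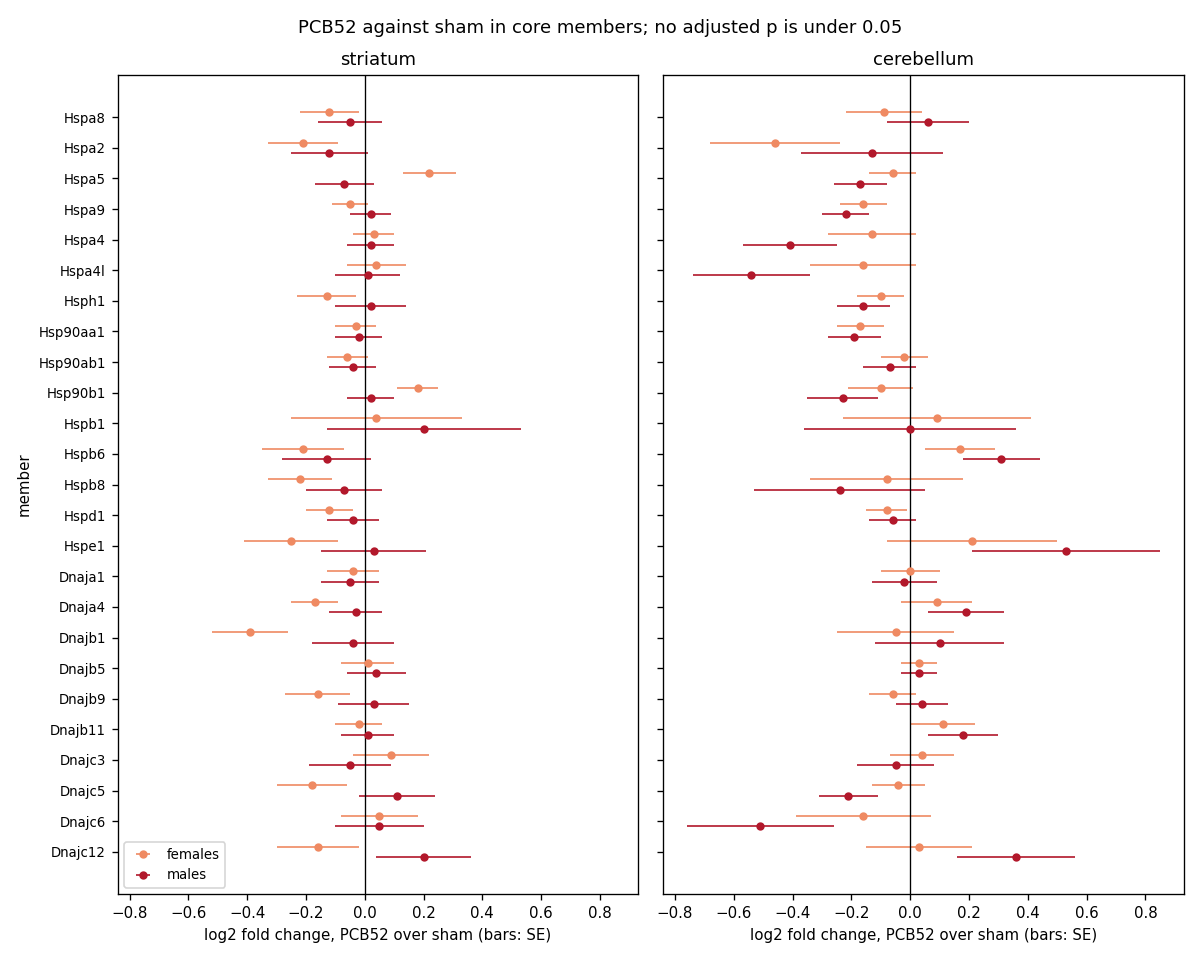
Log2 fold change of 25 core members, PCB52 over sham, with the SE of the fit, in females and males of striatum (left) and cerebellum (right). No point passed an adjusted p of 0.05; in striatal females Dnajb1 lies at -0.39 and Hspa5 at 0.22, and in cerebellar males Hspa4l at -0.54.

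In striatal males the effects were small, with a median of 0.02 log2 units over the members, and the lowest p was that of Dnajc12 (0.2 ± 0.16, adjusted p = 1). In striatal females 43 of 58 members lay below 0, with a median of -0.1 against 0 over all genes. Between the same groups the ribosomal list mean was 8.13 ± 0.33 in PCB52 females, against 8.44 ± 0.35 in sham females, and the striatal projection neuron list mean 9.11 ± 0.48 in PCB52 females, against 9.41 ± 0.18 in sham females (n = 6 each, ± SD). Beyond the covariate fits below, their part in the members' values was not tested. All 9 mitochondrial members lay below 0 there (median -0.14), and 8 of 10 heat-inducible members (median -0.12), of which none passed. The share of all genes below 0 was not counted, so these counts of signs are a description. Dnajb1 had the lowest p. Its lowest, median and highest levels were 55.2, 59.7 and 64.5 CPM in PCB52 females, against 63, 72.8 and 119 CPM in sham females. The groups overlapped by a narrow margin, and the highest sham value was that of female 12, the library with olfactory bulb markers. That library also had the highest ribosomal list mean of striatum, 9.13. Beyond the fits that follow, the part of either in the Dnajb1 value was not tested. The log2 fold change was -0.39 ± 0.13 (adjusted p = 0.294), and it was -0.2 (adjusted p = 0.754) without striatal females 14, 20 and 12, -0.23 (adjusted p = 0.805) without PCB52 female 22 as well, and -0.18 (adjusted p = 0.518) with the ribosomal list mean as a covariate.

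Dnajc30 stood at 9.99, 13.7 and 15.6 CPM in striatal PCB52 females, against 14.5, 17.2 and 21.8 CPM in sham females (-0.38 ± 0.13, adjusted p = 0.304). Its value was -0.22 (adjusted p = 0.867) without the 4 libraries with other tissue or cerebellar transcripts and -0.21 (adjusted p = 0.523) with the ribosomal covariate. Dnajb4, a relative of Dnajb1, stood at 32.1, 34.4 and 36 CPM in PCB52 females, against 34.6, 39.3 and 50.3 CPM in sham females (-0.24 ± 0.09, adjusted p = 0.311). Both groups of each gene overlapped in part of their range. For Hsp90b1 and Hspa5 of the ER the values lay the other way. Hsp90b1 averaged 398 ± 40.3 CPM in PCB52 females and 351 ± 33.1 CPM in sham females (SD, n = 6 each; 0.18 ± 0.07, adjusted p = 0.333), and was 0.11 (adjusted p = 0.811) without females 14, 20 and 12. Its highest value, 461 CPM, was that of PCB52 female 20. Hspa5 stood at 287, 335 and 428 CPM in PCB52 females, against 250, 303 and 321 CPM in sham females (0.22 ± 0.09, adjusted p = 0.342). The highest Hspa5 value was also that of PCB52 female 20, the library with choroid plexus markers. Hspa5 also gave the lowest p for the female minus male effect in striatum (0.29 ± 0.14, adjusted p = 0.914). Of the ER chaperone list 5 of 10 members lay above 0 and 5 below, with a median of 0.

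In cerebellum with both sexes together, Dnajc11, a mitochondrial J protein of the cristae junctions, had the lowest p. In males it stood at 77.3, 79.4, 80, 74.8 and 79.2 CPM under PCB52, against 68.7, 71.3, 70, 66.9 and 71.8 CPM in sham, and these groups did not overlap. The share of all genes with such a gap was not counted, and 14.3% had an unadjusted p under 0.05 in cerebellar males. In females the lowest, median and highest levels of Dnajc11 were 72.1, 78.3 and 86.4 CPM under PCB52, against 65.7, 69.4 and 76 CPM in sham, with overlap. The log2 fold change was 0.15 ± 0.04 (adjusted p = 0.326 in edgeR's test). DESeq2 called Dnajc11 at an adjusted p of 0.0247, with 0.18% of all genes called, and over the 8 settings tried the adjusted p ran from 0.0247 to 0.999. Without the 4 libraries of high ribosomal mean the value was 0.14 (adjusted p = 0.999).

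Hspa9 had the next lowest p. In males it stood at 237, 194, 217, 216 and 178 CPM under PCB52, against 237, 240, 246, 237 and 239 CPM in sham. In females its lowest, median and highest levels were 196, 223 and 253 CPM under PCB52, against 236, 248 and 255 CPM in sham. In males 4 of 5 and in females 5 of 6 PCB52 libraries lay below the sham range, a count not made for all genes. The log2 fold change of Hspa9 was -0.19 ± 0.06 over both sexes (adjusted p = 0.326), and -0.11 (adjusted p = 0.999) without the 4 libraries of high ribosomal mean. Hsp90aa1 stood at 5020, 3850, 4050, 3960 and 3600 CPM in PCB52 males, against 4090, 5010, 4830, 4420 and 4820 CPM in sham males. In females it stood at 3910, 4370 and 4760 CPM under PCB52, against 4640, 4850 and 5090 CPM in sham, and both sexes together gave -0.18 ± 0.06 (adjusted p = 0.326), and -0.11 without those 4 libraries (adjusted p = 0.999). Hspb6 had a log2 fold change of 0.24 ± 0.09 over both sexes (adjusted p = 0.326), and 0.1 without the 4 libraries of high ribosomal mean. In cerebellar females the lowest p belonged to Dnajc11, Hspa9, Hspa2 (-0.46 ± 0.22) and Hsp90aa1, each with an adjusted p of 1.

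**Figure D4:**
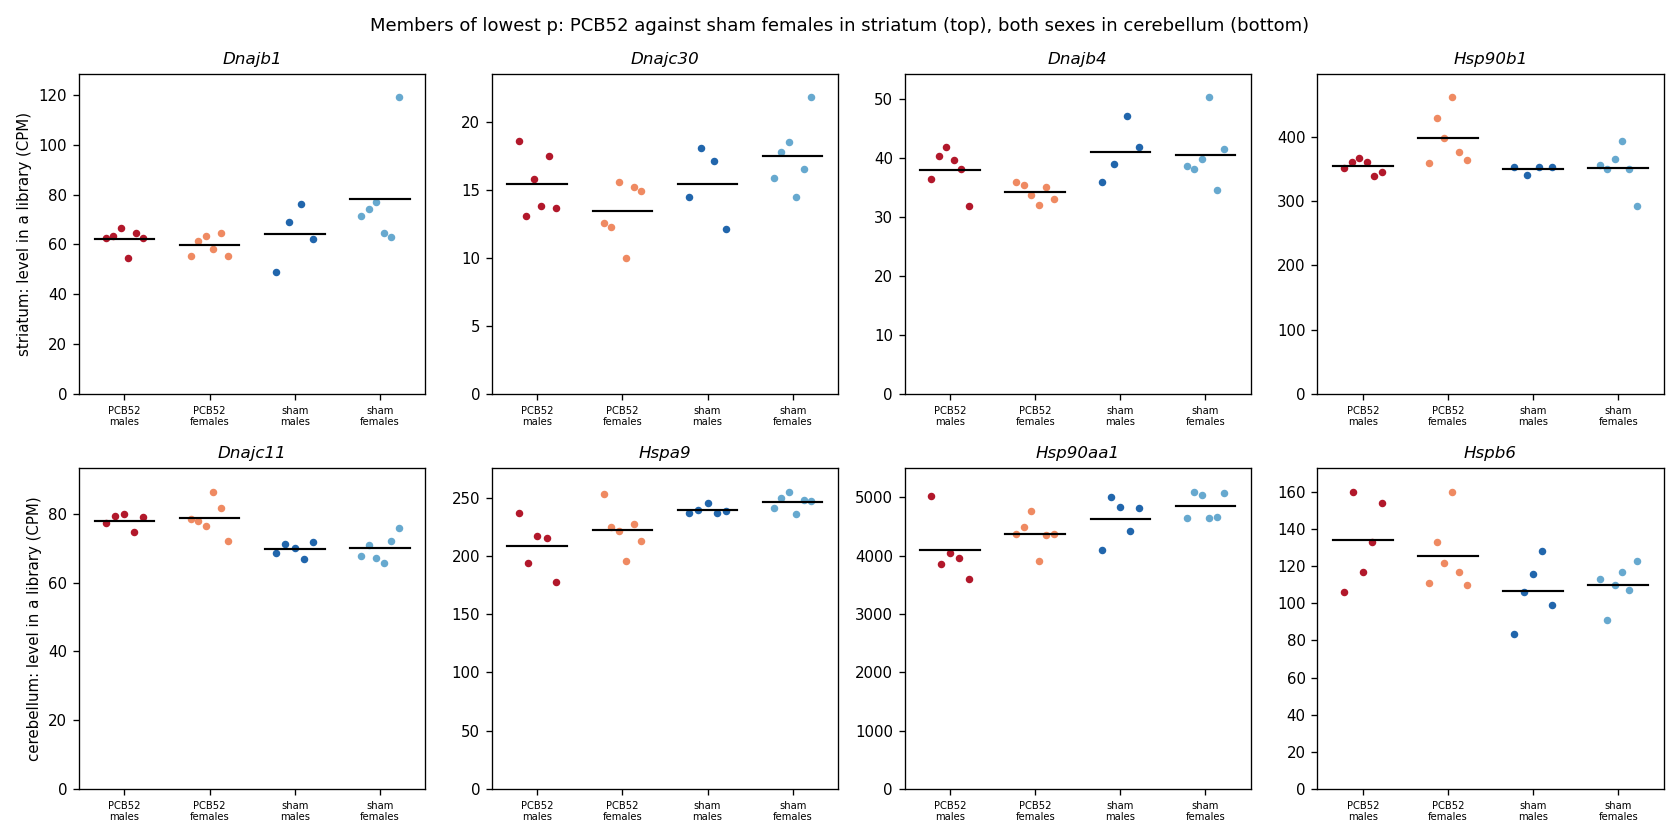
Level in each library (CPM, linear axis from 0) of the 4 members of lowest p in striatal females (top) and in cerebellum over both sexes (bottom), by group, with a line at the mean. Striatal Dnajb1 has 1 sham female at 119 CPM above all others, and cerebellar Dnajc11 lies at 74.8 to 80 CPM in PCB52 males against 66.9 to 71.8 CPM in sham males.

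In cerebellar males all 3 HSP110 genes had values below 0, and none passed. Hspa4l stood at 193, 109, 128, 127 and 96 CPM in PCB52 males, against 232, 167, 192, 152 and 198 CPM in sham males (-0.54 ± 0.2, adjusted p = 0.313). Hspa4 stood at 305, 178, 235, 248 and 168 CPM in PCB52 males, with a mean of 227 ± 55.8, against 298 ± 24.2 CPM in sham males (SD, n = 5 each; -0.41 ± 0.16, adjusted p = 0.313). Males 15 and 23, which had a high ribosomal mean, held the lowest values of both genes. With the ribosomal mean as a covariate the values were -0.22 for Hspa4l and -0.16 for Hspa4 (adjusted p = 0.815 for both). Dnajc9, a histone chaperone, stood at 33.5, 57.1, 42.4, 44.6 and 66.5 CPM in PCB52 males, against 27.9, 40.4, 35.8, 43.1 and 29.7 CPM in sham males (0.44 ± 0.18), and was 0.14 with the covariate.

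The 4 cerebellar libraries of high ribosomal mean were all from PCB52 animals, and none was from a sham animal. Of the 59 members tested, 16 lay above and 6 below the range of the other 18 libraries in all 4 of them. Over all genes 36% lay outside in that way, close to the share of the members. Hspe1 stood at 83.1 to 119 CPM in the 4 libraries, against 33.4 to 62.4 CPM in the 18, and Dnajc12 at 125 to 157 CPM against 62.7 to 105 CPM. Dnajc6 stood at 141 to 169 CPM in the 4, against 233 to 375 CPM in the 18, and Hspa4 at 168 to 213 CPM against 235 CPM or more. Hspd1, the neighbour of Hspe1, overlapped, at 188 to 218 CPM in the 4 and 171 to 226 CPM in the 18. The part of the ribosomal axis in the PCB52 values was not tested beyond the covariate and the fits without these libraries.

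**Figure D5:**
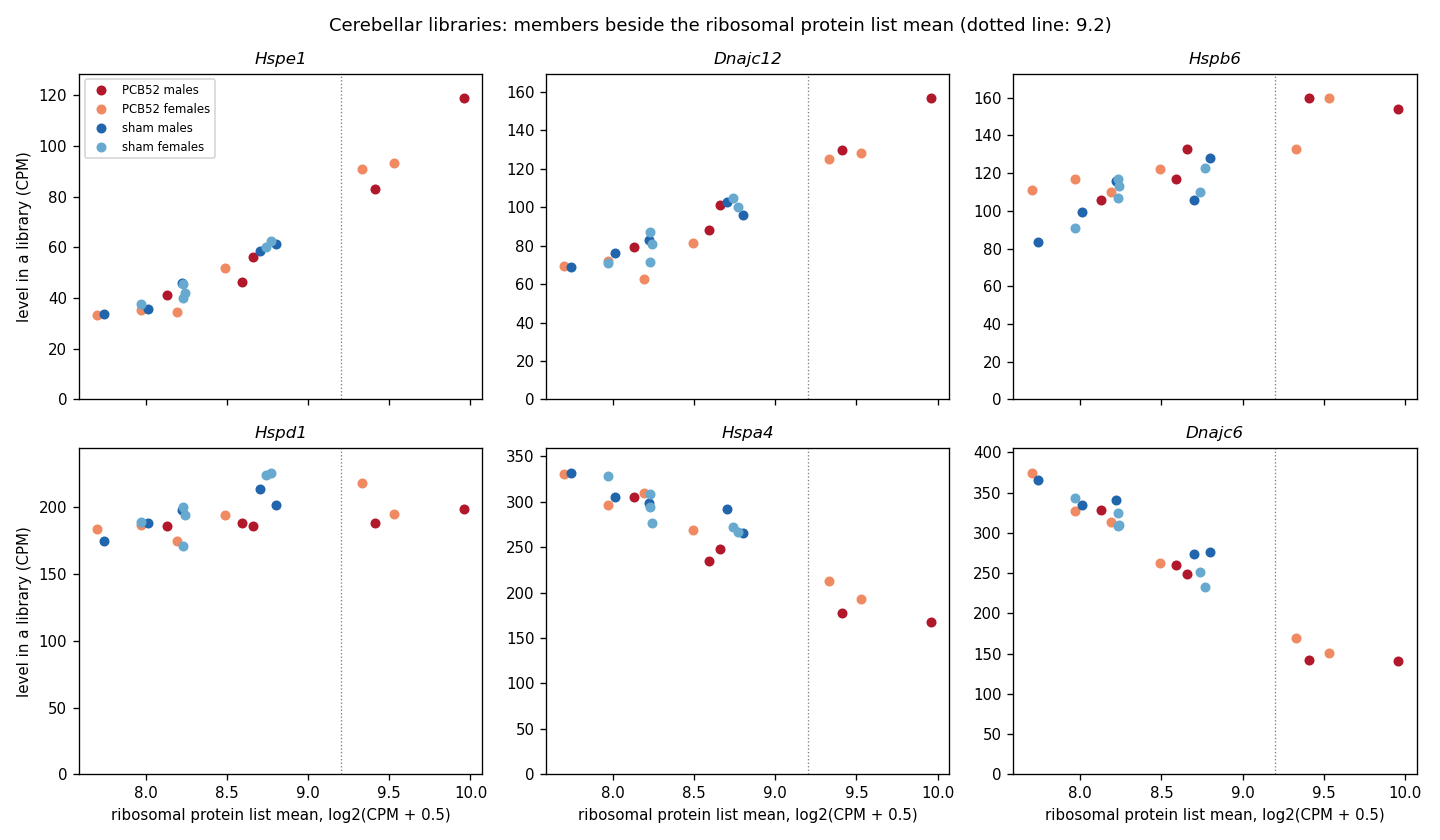
Level of 6 members in the 22 cerebellar libraries (CPM, linear axis from 0) against the mean of the ribosomal protein list (log2 of CPM plus 0.5), coloured by group; the dotted line lies at 9.2. The 4 libraries right of the line are PCB52 animals, with Hspe1 at 83.1 to 119 CPM, Hspa4 at 168 to 213 CPM and Hspd1 within the range of the other 18.

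The PCB52 effect in striatum minus that in cerebellum had its lowest p in Hspb6 (-0.43 ± 0.14, adjusted p = 0.268), followed by Dnajc30 (-0.53 ± 0.19), Dnajc11 (-0.17 ± 0.06) and Hsp90b1 (0.25 ± 0.09), each with an adjusted p of 0.268. With the ribosomal covariate, and without the 4 cerebellar libraries of high ribosomal mean, the values were -0.25 and -0.28 for Hspb6, -0.16 and -0.19 for Dnajc30, -0.14 and -0.15 for Dnajc11, and 0.13 and 0.12 for Hsp90b1 (adjusted p = 1 for each). The partner lists gave 0 calls in any PCB52 comparison. In striatal females Fkbp5 had the lowest p among them (-0.26 ± 0.1, adjusted p = 0.326). In cerebellum over both sexes these were Ier5, a feedback regulator of HSF1 (0.25 ± 0.08), and Hsf1 (0.18 ± 0.05), each with an adjusted p of 0.326. Ier5 stood at 69.3 to 87.5 CPM in the 4 libraries of high ribosomal mean. It stood at 59 to 77.1 CPM in the other PCB52 libraries and 51.1 to 69.2 CPM in sham. For Hsf1 these ranges were 66.5 to 76.8, 57.1 to 74.1 and 53.9 to 65.5 CPM. Values of both genes with the ribosomal covariate are not given here.

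Between females and males 0 of 58 members in striatum and 0 of 59 in cerebellum passed, also without the 5 libraries with transcripts of both sexes, against 0.0494% and 0.0257% of all genes. All males entered their groups at 39 days and all females at 42 days, so sex and age at entry cannot be told apart. At an unadjusted p under 0.05 there were 2 members in striatum (3.26% of all genes) and 2 in cerebellum (1.56%). In striatum Hspa12b averaged 30.6 ± 4.49 CPM in females (SD, n = 12) and 35.8 ± 4.71 CPM in males (SD, n = 10), a log2 fold change of -0.23 ± 0.09 (adjusted p = 1). Hspb1 averaged 17.8 ± 6.55 CPM in females and 12.9 ± 3.88 CPM in males (0.49 ± 0.22, adjusted p = 1). In cerebellum Dnajc10 averaged 137 ± 9.71 CPM in females and 124 ± 13.5 CPM in males (0.14 ± 0.06, adjusted p = 0.998), and Dnajb3 1.34 ± 0.358 CPM in females and 2.05 ± 1.11 CPM in males (-0.55 ± 0.24, adjusted p = 0.998). All 10 heat-inducible members tested in striatum lay above 0 for female over male, and none passed. Their median was 0.05 log2 units, against 0.01 over all genes. The share of all genes above 0 was not counted, so this is a description.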

How the data were processed

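RNA of tissue punches was sequenced. The labels' protocols offer poly(A) selection or ribosomal RNA depletion and do not say which was used. The submitters' processing notes name FastQC, HISAT2 and the genome build rn6. Counter, annotation and strand setting: not given in the sources used here. An overlapping or antisense gene may share reads. The deposited tables, 1 per region, hold raw counts per gene and library. Columns matched 44 of the 47 samples, and 0 columns were left unmapped; the other 3 samples were not analysed here. Symbols matched 15230 of 15319 identifiers (99.4%) in a RefSeq table of GRCr8, used for names, promoter windows and their positions in GRCr8 only.

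Counts were tested over all genes with edgeR 4.0.16 (R 4.3.3; TMM, default filter on low counts, quasi-likelihood F-test, robust; two-sided, Benjamini-Hochberg, threshold 0.05), with 4 group means per region, and 8 in the joint fit of both regions. CPM printed from libraries are scaled by TMM factors of all 44 libraries together. Fold changes are log2, and the SE of the fit is the absolute log2 fold change divided by the square root of the F statistic. A list mean averages log2 of CPM plus 0.5. The steps were tested on simulated data.

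Members and lists were chosen with earlier results of these data known. The text names a fixed core of members, those past the threshold (in the region comparison the 8 of largest change per direction) and, where fewer than 4 passed, the 4 of lowest p; others were named after their values were seen. The animal number pairs the regions, since both punches came from the same animal: over 21 animals the correlation of deviations from group means ran from -0.41 to 0.52 (median 0.09).

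Alternatives were DESeq2 1.42.0, RLE size factors, all genes without the filter, limma 3.58.1 voom with quality weights, only the libraries compared, each library left out, the animal as a block, the ribosomal list mean as a covariate, and fits without libraries of both sexes or with other tissue (cortical, choroid plexus, olfactory bulb or thalamic, septal and hypothalamic list means more than 2 log2 units over the regional median). After seeing the data, fits were added without libraries of a ribosomal mean above 9.2, and without striatal PCB52 female 22 beside those with other tissue, since its granule and Purkinje list mean passed the same limit.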

Additional observations from a re-analysis of the deposited data

Results flagged for a closer look

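Core members and list means were examined in the 8 groups of 4 to 6 libraries. Of 280 such sets of values, 17 held a library far from the rest of its group; chance flags about 5% of groups. Striatal PCB52 female 18 had the highest Hspa8 (2290 CPM, others 1780 to 1940), Hspd1 (197 CPM, others 167 to 176), Hspe1 (57.7 CPM, others 34.5 to 41.3) and mitochondrial chaperonin list mean (6.74, others 6.29 to 6.42). Striatal sham female 12, the library with olfactory bulb markers and the highest ribosomal mean of striatum (9.13), had 119 CPM of Dnajb1 (others 63 to 77.2). Striatal PCB52 female 22, with cerebellar transcripts, had 23 CPM of Dnajc12 (others 14.2 to 17.5), and PCB52 female 20, with choroid plexus markers, 42.7 CPM of Hspb8 (others 30.5 to 33). Striatal PCB52 male 19 had 54.4 CPM of Dnajb1 (others 62.4 to 66.7). Among striatal sham males, male 1 had 187 CPM of Hspa9 (others 203 to 205) and male 3 had 340 CPM of Hsp90b1 (the others at 352 to 3 digits).

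In cerebellum, PCB52 male 23, which had the highest ribosomal mean, had 1070 CPM of Hsp90ab1 (others 1350 to 1390), 199 CPM of Hspd1 (others 186 to 188) and 25.4 CPM of Dnajc3 (others 21.8 to 22.7). PCB52 female 20, also of high ribosomal mean, had the lowest list means of HSP70 (5.31, others 5.43 to 5.5) and HSP90 (10.06, others 10.25 to 10.32). PCB52 female 14 had 28.1 CPM of Dnajc3 (others 22.1 to 23.4), and sham male 1, with choroid plexus markers, the lowest mean of the heat-inducible list (6.67, others 6.94 to 7.05).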

How the results depend on the processing

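The count of members called between striatum and cerebellum was 48, ran from 43 to 49 over 10 other settings and from 45 to 49 with each animal left out, and was 48 (14 higher, 34 lower) with the animal number as a replicate block in the paired fit; the block moved no count of calls by over 1.5 times. The log2 fold change of Hspe1 between regions (-0.26) turned to 0.01 without the libraries of high ribosomal mean; the cause was not tested. In cerebellum with both sexes, DESeq2 called 1 member, Dnajc11, against 0 in edgeR, and 21 genes in all. Counts of members called in the other PCB52 and sex comparisons were 0 under every setting tried, with each library left out in turn as well; for cerebellum with both sexes the range over left-out libraries was 0 to 0. Hspd1 missed the threshold between regions with RLE size factors, with DESeq2, without the libraries with other tissue or cerebellar transcripts, without the libraries of high ribosomal mean (adjusted p = 0.111) and without animal 7, 14, 16 or 22. Dnaja4 passed it in 6 settings (adjusted p of 1.25e-05 to 0.0414) and without animal 16, and Hspa4 in 3 settings and without animal 20. Depth limits Hspa1a, Hspb2 and Dnajb13, which lie near or below 1 CPM in at least 1 region.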
